A study of Mus musculus with 12 samples.

Results

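Gene deserts are long stretches of a chromosome without protein-coding genes. The accessible sites in them are candidates for distal regulatory elements, which can act on a gene over large distances by chromatin looping, and among the best studied are the distal control region beside Sox2 in embryonic stem cells and the region between Myc and Gsdmc. Such sites are usually cell-type specific, and many carry binding motifs of lineage transcription factors or lie in copies of transposable elements. Omni-ATAC-seq, a protocol that tags open chromatin with a Tn5 transposase carrying adapters, was used to read such sites in mouse embryonic stem cells (mESCs) and in mouse embryonic fibroblasts (MEFs).

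A peak was counted as a gene-desert peak when it lay on an assembled chromosome, more than 100 kb from the nearest protein-coding transcription start site (TSS) of the GENCODE M21 annotation (GRCm38), in no protein-coding gene body, and more than 1 kb from any other TSS. Of 91354 peaks in the set built from the BGI samples, 6655 met this rule, and all 6655 passed the filter on low counts. The peaks just inside the rule lay 100007, 100041 and 100055 bp from a TSS, with log2 fold changes (mESC against MEF) of -4.48, -4.54 and -4.13. Those just outside, at 99902, 99990 and 99991 bp, had log2 fold changes of -3.93, 4.18 and 0.13.

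Both cell types had a C57/Bl6 background and received no treatment that the labels name. MEFs were sorted as THY1+ cells and mESCs as THY1-/SSEA1+/EPCAM+ cells, and the sort limits what each group stands for. There were 3 biological replicate libraries per cell type (MEF 1, 2 and 4, mESC 1, 3 and 5), and each of the 6 libraries was read by both platforms, BGI (DNBSEQ-G400) and Illumina (HiSeqX10), which gave 12 samples. Each sample had 15860985 to 21831840 reads counted in the peak set, of which 489268 to 1092629 fell in gene-desert peaks. The promoter peaks of all 6 mESC markers (Pou5f1, Nanog, Esrrb, Zfp42, Tdgf1, Epcam) were higher in mESCs and those of all 6 MEF markers (Thy1, Col1a1, Col1a2, Pdgfrb, Prrx1, Twist2) were higher in MEFs. Of the markers of other cell types, Cdh5, Ptprc and Cdx2 had no promoter peak. Pecam1 had a log2 fold change of -0.28 and Elf5 of 0.05, neither called. Cd68 (2.21), Gata4 (0.57) and Sox17 (2.50) were higher in mESCs and Gata6 (-0.64) was higher in MEFs, and their part in the results was not tested.

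The sequences that follow are gene-desert peaks named in the text that were chosen for a motif match near their centre, and they are not a typical sample of their class. Each is the central 151 bases of a peak, read from the plus strand of GRCm38.p6, and capitals mark a motif match on either strand. The first 3 were higher in mESCs and flank Sox2, the gene of an HMG-box transcription factor required for pluripotency. They hold an octamer match (with an AP-1 match), an ESRRB match and a KLF match.
Dnajc19–Sox2, chr3:34470113-34470263: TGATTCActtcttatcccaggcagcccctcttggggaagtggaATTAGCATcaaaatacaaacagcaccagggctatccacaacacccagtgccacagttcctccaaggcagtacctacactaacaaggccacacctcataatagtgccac
Sox2–Atp11b, chr3:34757960-34758110: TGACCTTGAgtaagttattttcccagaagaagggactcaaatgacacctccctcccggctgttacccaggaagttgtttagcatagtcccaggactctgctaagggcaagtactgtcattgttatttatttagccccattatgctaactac
Sox2–Atp11b, chr3:34760224-34760374: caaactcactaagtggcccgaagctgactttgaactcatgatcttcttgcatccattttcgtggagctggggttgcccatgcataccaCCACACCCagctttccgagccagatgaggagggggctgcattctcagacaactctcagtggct

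The next 4 were higher in MEFs. They are the peak with the lowest p of that direction, between Hmga2 and Msrb3 (AP-1 match), those with the lowest p in the Myc–Gsdmc desert (AP-1 match) and the Ubash3b–Sorl1 desert (RUNX match), and a peak between Gas1 and Dapk1 (TEAD match).
Hmga2–Msrb3, chr10:120717241-120717391: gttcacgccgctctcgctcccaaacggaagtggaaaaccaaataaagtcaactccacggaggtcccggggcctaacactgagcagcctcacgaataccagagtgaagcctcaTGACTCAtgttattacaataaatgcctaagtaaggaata
Myc–Gsdmc, chr15:62328495-62328645: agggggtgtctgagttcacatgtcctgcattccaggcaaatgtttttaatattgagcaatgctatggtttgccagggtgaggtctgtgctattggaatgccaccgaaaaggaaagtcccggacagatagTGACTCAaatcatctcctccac
Ubash3b–Sorl1, chr9:41542761-41542911: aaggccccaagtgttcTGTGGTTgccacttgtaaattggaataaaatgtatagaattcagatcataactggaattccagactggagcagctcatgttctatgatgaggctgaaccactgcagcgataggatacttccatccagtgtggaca
Gas1–Dapk1, chr13:60365101-60365251: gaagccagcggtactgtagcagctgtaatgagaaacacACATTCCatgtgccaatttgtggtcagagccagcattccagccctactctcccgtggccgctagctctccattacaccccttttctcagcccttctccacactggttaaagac

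The last was as accessible in both cell types as the replicate error could tell. It lies between Gm525 and Nog and holds both a TEAD and an AP-1 match.
Gm525–Nog, chr11:89187027-89187177: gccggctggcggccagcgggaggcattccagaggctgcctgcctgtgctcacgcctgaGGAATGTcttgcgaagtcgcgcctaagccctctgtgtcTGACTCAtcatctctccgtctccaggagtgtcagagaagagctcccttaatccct

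The first comparison asked how gene-desert accessibility differed between mESCs and MEFs in the BGI samples. Most gene-desert peaks belonged to one cell type, and more often to MEFs: 4060 of 6655 (61.0%) were higher in MEFs, 2282 (34.3%) were higher in mESCs and 313 were not called, by edgeR's quasi-likelihood test at an adjusted p below 0.05. Over all 91354 peaks, 84.1% were called, 43.2% higher in MEFs and 40.9% higher in mESCs, whereas 6342 gene-desert peaks (95.3%) were called. Intergenic peaks closer to genes leaned the other way, with 39.8% of 23952 higher in MEFs and 48.0% higher in mESCs. A peak entered the set when it was reproducible in at least one cell type, so a peak listed for 1 cell type only had to be high there. Fewer cells with an open site and less opening per cell cannot be told apart in bulk samples.

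The differences were large. The median log2 fold change was -2.25 over gene-desert peaks, against -0.08 over all peaks and 0.26 over the other intergenic peaks, and the median size of the log2 fold change was 3.75 against 1.74 over all peaks. An absolute log2 fold change of 4 or more was found at 2864 gene-desert peaks (43.0%) and at 15.9% of all peaks. The fold changes of gene-desert peaks had 2 modes and few values around 0, as the plot of fold changes shows. Counting as called those with an absolute log2 fold change of 1 or more as well left 5948 gene-desert peaks (89.4%), against 63.0% of all peaks. The 3 samples of one cell type did not overlap the 3 of the other at 6347 gene-desert peaks (95.4%, against 85.1% of all peaks).

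**Figure D1:**
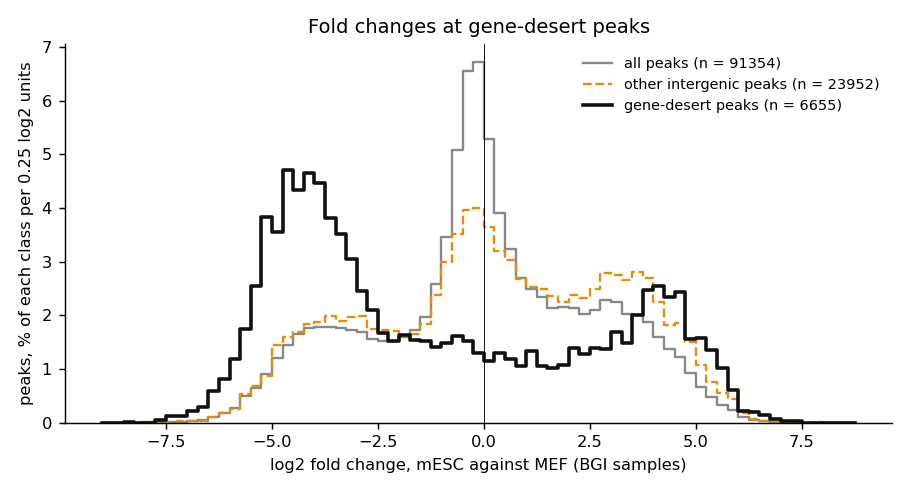
Share of peaks (y axis, % of each class) by log2 fold change of mESC against MEF in the BGI samples (x axis), for 6655 gene-desert peaks, 23952 other intergenic peaks and all 91354 peaks. Gene-desert peaks lie mostly away from 0, with a median of -2.25, while the other classes have their highest share close to 0.

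A typical gene-desert peak was nearly silent in the other cell type. Values here are CPM, reads per 1000000 reads counted in the peak set. Over the peaks called higher in MEFs, the median was 8.96, 8.70 and 8.36 CPM in the MEF BGI samples 1, 2 and 4, and 0.694, 0.591 and 0.621 CPM in the mESC BGI samples 1, 3 and 5. Over the peaks called higher in mESCs, the median was 8.51, 8.57 and 8.57 CPM in mESCs and 0.646, 0.746 and 0.697 CPM in MEFs. These 2 classes were chosen by this contrast, so the medians are a description. The depth behind them was modest, with a median of 118 to 143 reads per gene-desert peak in the MEF samples and 32 to 36 in the mESC samples, and 17 to 167 of the peaks had no read in a BGI sample.

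The summits called by MACS2 in each sample alone are given as a description, since the peak set was built from them and the classes were chosen by this contrast, which largely fixes the counts in the own cell type. Of the 4060 peaks higher in MEFs, 4044 held a called summit in all 3 MEF BGI samples and 3035 (74.8%) held none in any mESC BGI sample. Of the 2282 peaks higher in mESCs, 2277 held a summit in all 3 mESC samples and 1609 (70.5%) held none in any MEF sample. Of the 313 peaks not called, 308 held a summit in all 6 samples. In the lists of reproducible peaks, 3898 gene-desert peaks matched the MEF list only, 2217 the mESC list only and 540 (8.11%) both. Of those on both lists, 204 were higher in MEFs, 121 higher in mESCs and 215 not called.

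The share of all reads in peaks that fell in gene-desert peaks was 5.04%, 4.92% and 4.64% in the MEF BGI samples 1, 2 and 4. It was 3.28%, 3.28% and 3.30% in the mESC BGI samples 1, 3 and 5. All MEF samples lay above all mESC samples, with means of 4.87% ± 0.207 (SD, n = 3) and 3.28% ± 0.0119 (SD, n = 3), a difference of -1.59 percentage points for mESC minus MEF (exact p = 0.1 from a two-sided permutation test, below which 3 against 3 samples cannot go). The difference was -0.869 points for peaks more than 200 kb from a TSS, and -3.69 points when only reads in peaks over 1 kb from any TSS were counted in the denominator. At other intergenic peaks the order was the opposite, with 17.9% ± 0.357 (SD, n = 3) in MEFs and 20.4% ± 0.544 (SD, n = 3) in mESCs (exact p = 0.1). Per 100 reads at other intergenic peaks there were 27.3 ± 0.623 (SD, n = 3) gene-desert reads in MEFs and 16.1 ± 0.414 (SD, n = 3) in mESCs (exact p = 0.1). More gene-desert peaks were on the MEF list only (3898) than on the mESC list only (2217). The direction of these gene-desert shares was therefore largely fixed by how the peaks entered the set, and the shares are a description.

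**Figure D2:**
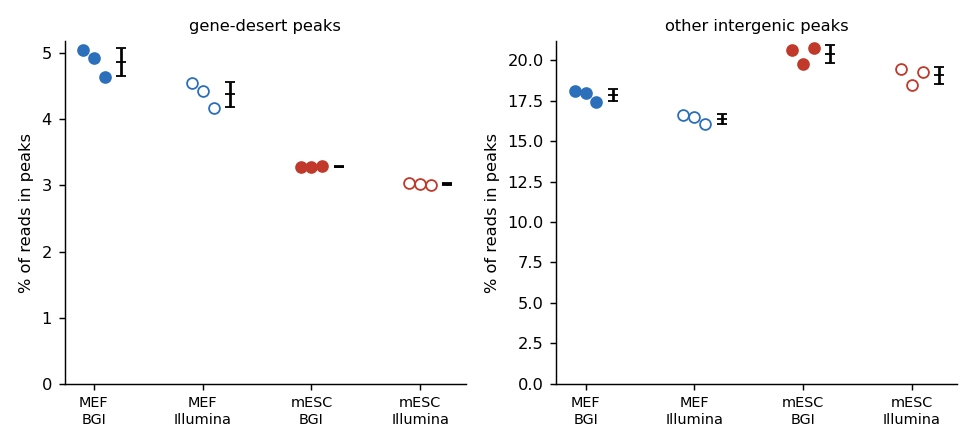
Percent of reads in peaks (y axis) at gene-desert peaks (left) and at other intergenic peaks (right) in each sample of the 4 groups, circles (filled for BGI, open for Illumina), with the mean and SD of 3 samples beside them. At gene-desert peaks the MEF samples, at 4.17% to 5.04%, lie above the mESC samples, at 3.01% to 3.30%, and at other intergenic peaks the order is the opposite.

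Among the peaks higher in mESCs, the 8 with the lowest p whose samples did not overlap had 34.2 to 74.0 CPM in the mESC BGI samples and 0.249 to 2.39 CPM in the MEF BGI samples. Their log2 fold changes ran from 4.80 to 6.77, with SE of 0.13 to 0.20 and adjusted p of 3.6e-14 to 6.1e-14 (edgeR). All 8 were also higher in mESCs in the Illumina samples, where the log2 fold changes were 4.99 to 7.53.

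The peak with the lowest p, chr4:22144845-22145346, lay between Faxc and Fbxl4, 186 kb from the Faxc TSS, and had 39.3, 37.9 and 41.1 CPM in mESC 1, 3 and 5. In MEF 1, 2 and 4 it had 0.415, 0.249 and 0.349 CPM, a log2 fold change of 6.77 ± 0.18 (SE). Repeat-masked bases made up 88.2% of it. The peak at chr1:137323323-137323824 lay 363 kb from Nr5a2, the gene of a nuclear receptor that binds and activates Pou5f1 regulatory DNA. It had 56.4, 74.0 and 66.9 CPM in mESCs and 1.71, 1.44 and 1.84 CPM in MEFs (log2 fold change 5.23 ± 0.15). A peak at chr12:109948298-109948799 lay in the imprinted Dlk1–Dio3 domain, 330 kb from Dio3, which encodes a thyroid hormone deiodinase. It had 55.8, 66.0 and 62.9 CPM in mESCs and 1.15, 1.19 and 1.89 CPM in MEFs (5.38 ± 0.15). The others lay between 2410131K14Rik and Med13l, between Ubl3 and Katnal1 and between Adgrd1 and Sfswap, with log2 fold changes of 4.80, 5.33 and 5.71.

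The remaining 2 of the 8 flanked Sox2 on its downstream side. The peak at chr3:34760049-34760550, whose centre with the KLF match is printed above, lay 110 kb from the Sox2 TSS. It had 39.5, 36.4 and 37.6 CPM in mESCs and 0.554, 0.696 and 0.548 CPM in MEFs (log2 fold change 5.90 ± 0.17). The peak at chr3:34761079-34761580 had 52.0, 53.9 and 46.2 CPM in mESCs and 0.369, 0.696 and 0.249 CPM in MEFs (6.77 ± 0.20). These peaks closed a run of 7 gene-desert peaks within 110 kb of the Sox2 end, spanning 10.5 kb, all 7 of them higher in mESCs with log2 fold changes of 3.0 to 6.77. Summed over these 7 peaks, the mESC samples had 152, 146 and 145 CPM and the MEF samples 4.89, 6.06 and 4.48 CPM, a ratio of the means of 28.8. The run was picked out after its values were seen.

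Sox2 was flanked by 22 gene-desert peaks in all, and they did not all move one way. Of these, 14 were higher in mESCs, 7 were higher in MEFs and 1 was not called. Farther than 110 kb from the Sox2 end toward Atp11b, 4 of 10 were higher in mESCs and 5 were higher in MEFs. The peak not called, at chr3:34795459-34795960, had 18.2, 20.1 and 19.6 CPM in MEFs and 20.6, 19.7 and 18.4 CPM in mESCs (log2 fold change -0.05 ± 0.11, adjusted p = 0.71, edgeR). On the other side of Sox2, within the noncoding gene Sox2ot, 3 of 5 were higher in mESCs. They included the octamer-bearing peak at chr3:34469938-34470439, with 9.96, 10.6 and 8.82 CPM in mESCs and 0.277, 0.298 and 0.0996 CPM in MEFs (5.33 ± 0.33). A peak 316 kb upstream, at chr3:34333511-34334012, went the other way, with 11.1, 11.2 and 5.03 CPM in MEFs and 0.252, 0.591 and 0.435 CPM in mESCs (-4.46 ± 0.40).

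Among the peaks higher in MEFs, the 8 with the lowest p whose samples did not overlap had 33.1 to 69.3 CPM in the MEF BGI samples and 0.311 to 2.71 CPM in the mESC BGI samples. Their log2 fold changes ran from -6.01 to -4.44, with SE of 0.13 to 0.20 and adjusted p of 3.3e-14 to 9.6e-14 (edgeR). In the Illumina samples the log2 fold changes were -6.70 to -4.52.

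The peak between Hmga2 and Msrb3, chr10:120717066-120717567, was the most accessible of them, with 69.3, 64.5 and 64.5 CPM in MEFs and 2.71, 2.13 and 2.05 CPM in mESCs (log2 fold change -4.91 ± 0.13). Hmga2 encodes an architectural chromatin protein of embryonic mesenchyme, and the gap between both genes held 17 gene-desert peaks, of which 16 were higher in MEFs and none in mESCs. The peak between Smad3 and Smad6, encoding an effector and an inhibitor of TGF-β family signalling, lay at chr9:63896294-63896795. It had 52.8, 51.6 and 44.9 CPM in MEFs and 2.65, 2.48 and 2.05 CPM in mESCs (-4.44 ± 0.14). At chr13:60364926-60365427, between Gas1, which encodes a Hedgehog co-receptor, and Dapk1, MEFs had 33.7, 35.5 and 36.1 CPM and mESCs 0.883, 1.06 and 0.621 CPM (-5.41 ± 0.18).

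The other 5 lay between Gadd45g and Diras2 (log2 fold change -5.45), between Myc and Gsdmc (-5.06), between Fbn2 and Slc27a6 (-5.66), between Sall1 and Tox3 (-5.46) and between Sox11 and Dcdc2c (-6.01). Fbn2 encodes the microfibril protein fibrillin-2, and Sall1 and Sox11 encode developmental transcription factors. The last of these peaks lay 1035 kb from Sox11 and 59.4 kb from Dcdc2c. The plot of named peaks shows each sample; the separation of the cell types at these peaks was part of how they were chosen.

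**Figure D3:**
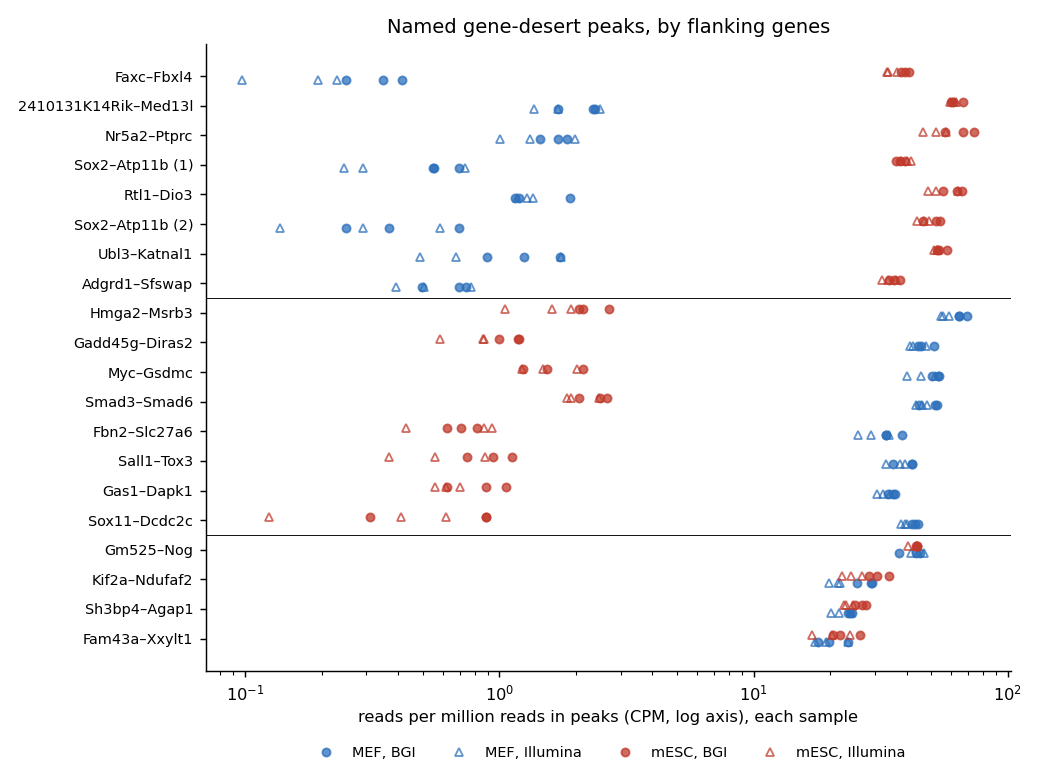
CPM on a log axis (x axis) in each of the 12 samples for the 8 peaks with the lowest p higher in mESCs (top), the 8 higher in MEFs (middle) and the 4 most accessible peaks not called (bottom), labelled by their flanking genes; filled circles are BGI and open triangles Illumina samples. The cell types are separated at every peak of the upper 2 blocks, as the choice of these peaks required. They lie together within 17.0 to 46.9 CPM at the bottom, where the choice required no call and a small log2 fold change.

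The peaks that did not differ were few. The most accessible of them, between Gm525 and Nog, at chr11:89186852-89187353, had 45.1, 43.5 and 37.5 CPM in MEFs and 43.9, 44.1 and 43.7 CPM in mESCs (log2 fold change -0.01 ± 0.10, adjusted p = 0.96, edgeR). Nog encodes Noggin, a secreted BMP antagonist. The next lay between Kif2a and Ndufaf2 at chr13:107831058-107831559, in a gene that the annotation types as a processed transcript, Zswim6. It had 25.5, 28.9 and 29.2 CPM in MEFs and 28.6, 34.1 and 30.5 CPM in mESCs (0.09 ± 0.10). The peaks between Sh3bp4 and Agap1 (0.08 ± 0.10) and between Fam43a and Xxylt1 (0.10 ± 0.13) completed the 4. The samples of the cell types overlapped at these peaks except between Sh3bp4 and Agap1, where mESCs had 26.7, 27.7 and 25 CPM and MEFs 24.5, 23.5 and 23.9 CPM. A p above the threshold does not show that the levels were equal.

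Motif matches split the gene-desert peaks by cell type. Letters were matched on both strands over the whole peak: AP-1 as TGANTCA, TEAD as GGAATGT, RUNX as TGTGGTT, the octamer of POU factors as ATGCNAAT, SOX as CCATTGT, ESRRB as TCAAGGTCA, KLF as CCACACCC, and CTCF by a 12-base consensus. No overlap between motifs was excluded. These shares are descriptions, and a match is not a bound site.

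AP-1, the FOS/JUN dimer active in fibroblasts, had a match in 2661 gene-desert peaks (40.0%) against 31.1% of the peaks over 1 kb from any TSS and 25.2% of all peaks. Among those higher in MEFs the share was 51.0%, and among those higher in mESCs 22.4%. TEAD matches stood in 20.1% of the peaks higher in MEFs and 13.9% of those higher in mESCs (13.6% of peaks over 1 kb from any TSS, 11.3% of all peaks). RUNX matches stood in 17.3% and 8.37% (12.7% and 10.9%). The 925 gene-desert peaks with a RUNX match had a median log2 fold change of -3.79, whereas all peaks of the set with one had -0.51. For AP-1 these medians were -3.34 and -1.29.

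The motifs of pluripotency factors had the opposite order. The octamer had a match in 14.6% of the gene-desert peaks higher in mESCs and 6.67% of those higher in MEFs (7.25% of peaks over 1 kb from any TSS, 6.19% of all peaks), and SOX in 14.9% and 6.80% (7.68% and 6.53%). ESRRB matches were rarer, with 2.54% and 0.64% (1.70% and 1.42%). KLF matches stood in 6.84% and 3.28% (7.28% and 7.03%) and in 7.99% of the peaks not called. The KLF share in peaks higher in mESCs was thus not above that of all peaks. CTCF, which anchors chromatin loops, set the peaks not called apart: 61 of these 313 peaks (19.5%) had a match, against 1.45% of those higher in MEFs, 2.02% of those higher in mESCs, 5.40% of peaks over 1 kb from any TSS and 4.42% of all peaks. Of the 166 gene-desert peaks with a CTCF match, 61 were not called, 59 were higher in MEFs and 46 were higher in mESCs.

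**Figure D4:**
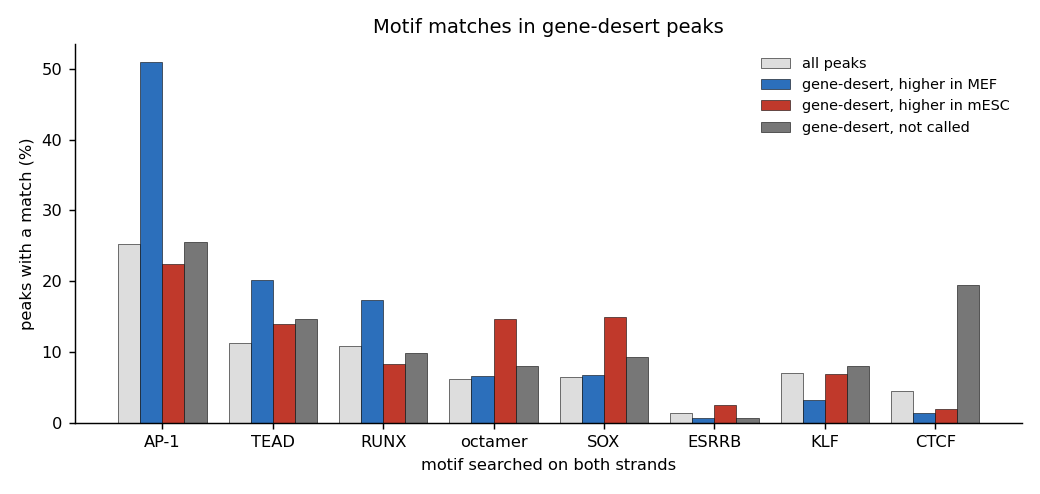
Percent of peaks with at least one match (y axis) for 8 motifs (x axis), in all 91354 peaks and in gene-desert peaks higher in MEFs (n = 4060), higher in mESCs (n = 2282) and not called (n = 313). AP-1 is highest in peaks higher in MEFs (51.0%), octamer and SOX in peaks higher in mESCs (14.6% and 14.9%), and CTCF in peaks not called (19.5%).

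Base composition and repeats also differed among the classes. The median GC content was 44.6% in peaks higher in MEFs, 47.8% in those higher in mESCs and 48.4% in those not called, against 51.0% over all peaks. Repeat-masked bases of the reference made up at least 50% of 745 gene-desert peaks (11.2%, against 9.41% of the other intergenic peaks and 5.65% of all peaks). Of these 745, 673 (90.3%) were higher in mESCs and 64 were higher in MEFs. Among the 5910 gene-desert peaks with fewer masked bases, 1609 (27.2%) were higher in mESCs and 3996 (67.6%) were higher in MEFs. In the whole peak set, 86.0% of the peaks with at least 50% masked bases were higher in mESCs. The SOX share was 21.8% in the masked peaks higher in mESCs and 12.1% in the others higher in mESCs, and the octamer share was 9.51% and 16.7%.

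The peak between Faxc and Fbxl4 was one of many copies of one sequence. Besides it, 32 gene-desert peaks on 14 chromosomes held a stretch at least 80% identical to its central 151 bases, without gaps and on either strand, so that copies with an insertion or deletion could be missed. All 32 were higher in mESCs, with a median log2 fold change of 5.33 and a median of 82.5% masked bases. In the whole peak set there were 80 such peaks, also all higher in mESCs (background 40.9%). Near-identical copies can exchange reads, so the count of each copy is uncertain, although reads of low mapping quality had been removed. The window of the Faxc–Fbxl4 peak is shown first, with its SOX match in capitals, and then the matching windows of the 3 copies with the highest mESC values, in the same orientation, with capitals at the bases that differ from the first.
Faxc–Fbxl4, chr4:22145020-22145170, plus strand: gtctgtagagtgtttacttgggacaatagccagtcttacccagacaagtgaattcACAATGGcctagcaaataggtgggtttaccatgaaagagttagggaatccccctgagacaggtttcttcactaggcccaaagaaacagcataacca
Impad1–Fam110b, chr4:5515562-5515712, minus strand: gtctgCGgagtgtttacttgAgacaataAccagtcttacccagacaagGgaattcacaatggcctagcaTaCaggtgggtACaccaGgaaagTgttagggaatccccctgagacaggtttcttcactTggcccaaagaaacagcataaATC
Il7–Stmn2, chr3:7805221-7805371, minus strand: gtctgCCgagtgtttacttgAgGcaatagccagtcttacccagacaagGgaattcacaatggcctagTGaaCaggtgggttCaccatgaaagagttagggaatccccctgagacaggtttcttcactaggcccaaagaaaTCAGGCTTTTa
Wdr20rt–Rpl10l, chr12:65593724-65593874, minus strand: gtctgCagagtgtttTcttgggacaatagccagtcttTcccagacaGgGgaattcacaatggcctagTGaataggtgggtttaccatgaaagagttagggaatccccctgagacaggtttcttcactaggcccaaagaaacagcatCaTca

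The copies differed from the first window at 15, 19 and 9 bases, and the SOX letters stood unchanged in all 3. Their mean CPM was 38.5, 36.2 and 34.1 in the mESC BGI samples and 1.22, 0.327 and 0.612 in the MEF BGI samples, with log2 fold changes of 4.90, 6.71 and 5.71.

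Gene-desert peaks fell into 1191 gaps between neighbouring protein-coding genes, with a median of 4 peaks per gap, and 207 gaps held at least 10. In 20 of these 207 every called peak was higher in MEFs, in 3 every called peak was higher in mESCs, and 184 held both directions. Neighbouring called peaks of a gap went the same way in 464 of 547 pairs (84.8%) less than 2 kb apart, in 689 of 948 (72.7%) at 2 to 10 kb, in 1213 of 1824 (66.5%) at 10 to 50 kb, in 854 of 1337 (63.9%) at 50 to 200 kb and in 300 of 510 (58.8%) beyond that. Of all possible pairs of called gene-desert peaks, on any chromosome, 53.9% have the same direction. Pairs share a chromosome region and its sequence composition, so these shares are a description.

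The desert between Myc and Gsdmc on chromosome 15 held the most, 35 peaks over 1509 kb, 28 higher in MEFs and 7 higher in mESCs. Myc encodes a growth-promoting transcription factor, and 29 of the 35 peaks lay in genes not typed as protein-coding, such as Pvt1. Of the 10 peaks within 200 kb of the Myc end, 6 were higher in mESCs, with log2 fold changes of 3.19, 3.02, 0.62, 3.17, 2.38 and 1.86 from the nearest to the farthest, and 4 were higher in MEFs. Of the 25 farther away, 24 were higher in MEFs and 1 was higher in mESCs, 968 kb from Myc (4.71). The peak with the lowest p, chr15:62328320-62328821, had 53.3, 53.9 and 50.3 CPM in MEFs and 2.14, 1.54 and 1.24 CPM in mESCs. On the other side of Myc, toward A1bg, all 14 gene-desert peaks were higher in MEFs.

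The desert between Ubash3b and Sorl1 on chromosome 9 held 31 peaks, all higher in MEFs, with log2 fold changes of -6.97 to -1.54. Summed over the 31 peaks, MEF 1, 2 and 4 had 420, 380 and 391 CPM and mESC 1, 3 and 5 had 35.6, 33.5 and 32.7 CPM. Of these peaks, 30 were on the MEF list only and 1 was on both lists, so the direction of the sums was largely fixed by how the peaks entered the set. Such noncoding genes covered 27 of the 31 peaks. The peak with the lowest p, chr9:41542586-41543087, carried 3 RUNX matches and had 37.2, 32.8 and 35.1 CPM in MEFs and 0.126, 0.532 and 0.186 CPM in mESCs (log2 fold change -6.97 ± 0.24).

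The third place was shared by 4 deserts with 29 peaks each. Between Gm5148 and Ankrd50, 26 were higher in MEFs and 3 in mESCs, and the summed level was 362 ± 19.3 CPM (SD, n = 3) in MEFs and 53.8 ± 7.15 CPM in mESCs. Between Plekhb2 and Hs6st1, 19 were higher in mESCs and 9 in MEFs, with 143 ± 6.14 CPM in MEFs and 242 ± 1.54 CPM in mESCs. Between Enc1 and Gm10260, 17 were higher in mESCs and 12 in MEFs, with 127 ± 13.5 and 204 ± 11.7 CPM. In the Gm5148–Ankrd50 desert 25 peaks were on the MEF list only and 3 on the mESC list only. These counts were 9 and 18 for Plekhb2–Hs6st1 and 12 and 17 for Enc1–Gm10260. The direction of these 3 pairs of sums thus depended on how the peaks entered the set. Between Kif2a and Ndufaf2, 13 were higher in mESCs and 15 in MEFs, and the sums, 239 ± 22 and 216 ± 10.8 CPM, differed by little more than the replicate error while single peaks ran from -6.82 to 4.72 in log2 fold change.

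**Figure D5:**
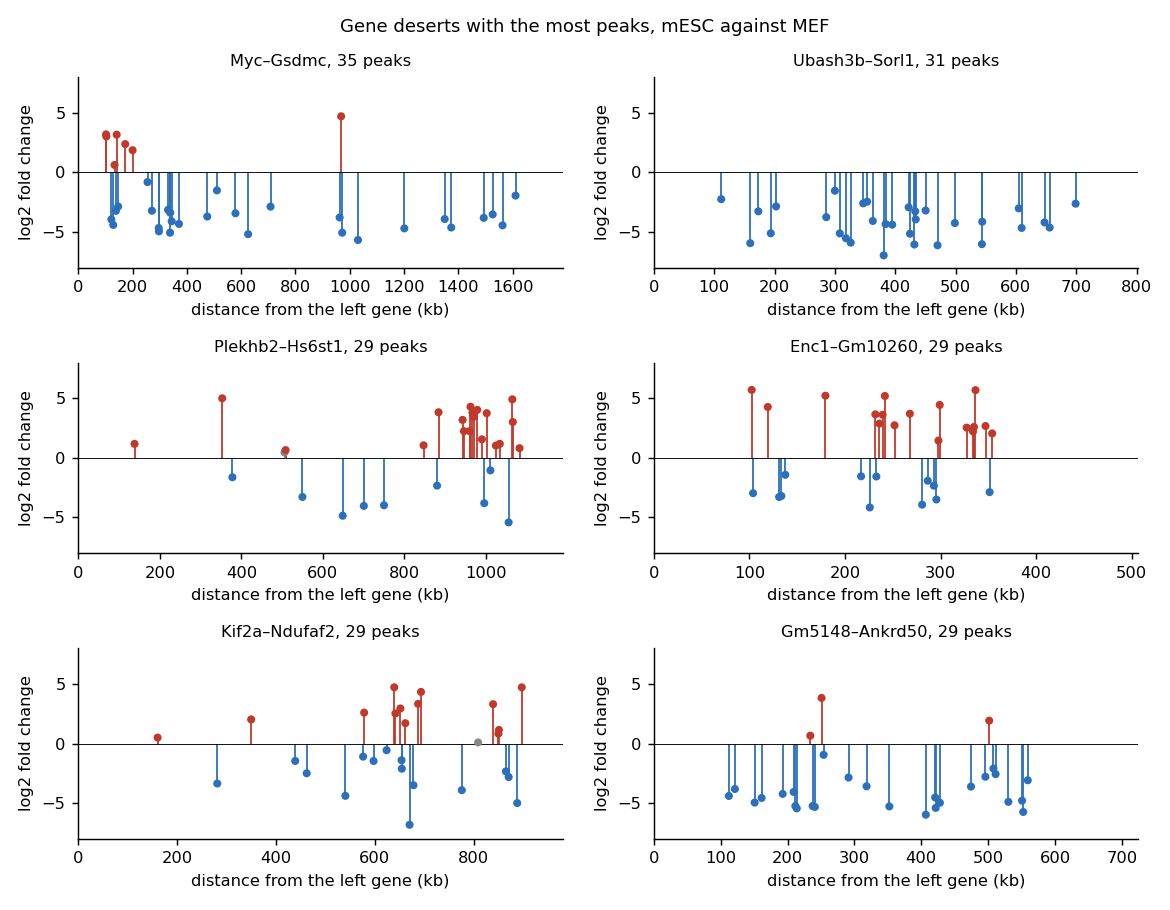
Log2 fold change of mESC against MEF in the BGI samples (y axis) of each gene-desert peak by its distance from the left gene (x axis, kb; the axis ends at the right gene), in the 6 deserts with 29 to 35 peaks; red is higher in mESCs, blue higher in MEFs, grey not called. All 31 peaks between Ubash3b and Sorl1 point down, whereas the desert beside Myc has 6 of its 7 upward peaks within 200 kb of Myc.

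Deserts with one direction only were named after their values were seen, so the direction of their sums was fixed by that choice. Higher in MEFs were 26 of 27 peaks between Cdh11 and Cdh5, 21 of 22 between Runx1 and Setd4 and all 21 between Prickle1 and Adamts20, with none higher in mESCs. Cdh11 encodes a mesenchymal cadherin and Runx1 a transcription factor of the RUNX family. The summed level in the Cdh11–Cdh5 desert was 305 ± 14.1 CPM (SD, n = 3) in MEFs and 26.2 ± 2.09 CPM (SD, n = 3) in mESCs. Toward mESCs went all 12 peaks between Pcmtd1 and Sntg1, 7 of them at least 50% masked, with 7.48 ± 0.541 CPM in MEFs and 109 ± 4.15 CPM in mESCs. All 11 between Cts3 and Zfp808 did too, none of them masked to that degree, with 8.15 ± 1.15 and 121 ± 4.99 CPM.

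Flanking genes were grouped into 4 lists, chosen with earlier results of these data known. Beside 61 of the 97 genes of the mesenchymal list lay 576 gene-desert peaks, of which 422 (73.3%) were higher in MEFs, 131 (22.7%) were higher in mESCs and 23 were not called, with a median log2 fold change of -3.39 against -2.25 over all gene-desert peaks. Beside secreted signals (32 of 50 genes) lay 201 peaks, with 138 (68.7%) higher in MEFs and 52 (25.9%) higher in mESCs. Beside pluripotency genes (16 of 50) lay 193 peaks, with 104 (53.9%) higher in MEFs and 75 (38.9%) higher in mESCs. Beside genes of synaptic adhesion (50 of 64) there were 440 peaks, with 229 (52.0%) higher in MEFs and 201 (45.7%) higher in mESCs. For comparison, 61.0% and 34.3% of all gene-desert peaks went these ways, and an assignment by position does not say which gene a site acts on.

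Within the pluripotency list the genes differed. Nr5a2 was flanked by 25 gene-desert peaks, 17 higher in mESCs and 6 higher in MEFs. Klf4, a reprogramming factor that fibroblasts also express, was flanked by 27, of which 25 were higher in MEFs and 1 was higher in mESCs (median log2 fold change -4.08). In the mesenchymal list, all 19 peaks beside Osr1, a transcription factor of limb and body wall mesenchyme, and 19 of 20 beside Fn1, which encodes the matrix protein fibronectin, were higher in MEFs. The lowest p of that list belonged to a peak 290 kb from Zfpm2, chr15:40364093-40364594, with 34.7, 36.1 and 30.1 CPM in MEFs and 1.13, 0.650 and 0.745 CPM in mESCs (log2 fold change -5.38 ± 0.19). Zfpm2 was flanked by 5 gene-desert peaks in all, 3 of them higher in mESCs and 2 higher in MEFs. Peaks beside Tshz3 (-4.84 ± 0.18) and Cdh11 (-5.91 ± 0.24) followed.

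Of the secreted signals, the chemokine gene Cxcl12 was flanked by 23 peaks, 21 higher in MEFs. The 2 lowest p of the list belonged to peaks higher in mESCs. One, at chr13:16830315-16830816, lay 799 kb from Inhba, an activin subunit gene, and 26.7 kb from the other flanking gene, Sugct. There mESCs had 35.0, 43.8 and 37.6 CPM and MEFs 0.646, 0.845 and 0.946 CPM (log2 fold change 5.51 ± 0.18, 76.3% masked). Inhba was flanked by 24 gene-desert peaks in all, 18 higher in MEFs and 5 higher in mESCs. Between Sema3d and Sema3a, genes of axon guidance signals, the peak at chr5:12872819-12873320 had a log2 fold change of 6.77 ± 0.27 and 63.9% masked bases. The peak beside Tgfb2 at chr1:186449233-186449734, with an AP-1 and a TEAD match, was higher in MEFs (-5.36 ± 0.23). In the synaptic adhesion list the lowest p belonged to a peak higher in MEFs (-5.04 ± 0.20), 2362 kb from Pcdh7 and 1234 kb from Stim2. Peaks beside Negr1 (5.72 ± 0.23) and Cntn5 (6.43 ± 0.26), both higher in mESCs, followed. The Cntn5 peak was 81.1% masked and one of the copies of the Faxc–Fbxl4 sequence (89.4% identical). The Inhba peak shared long stretches with that sequence too but carried an insertion, so the counts of both are uncertain.

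The distance to genes went with the direction only in part. The median distance to the nearest protein-coding TSS was 203 kb. The share higher in MEFs was 56.7% of 2025 peaks at 100 to 150 kb, 61.7% at 150 to 200 kb, 64.7% at 200 to 300 kb, 65.3% at 300 to 500 kb and 60.7% at 500 to 1000 kb. Beyond 1000 kb it was 47.6% of 168 peaks, and 51.8% were higher in mESCs. Among peaks less than 50% masked, the share higher in mESCs was 33.2%, 26.5%, 24.1%, 23.2% and 23.4% in the first 5 ranges and 23.5% (24 of 102) beyond 1000 kb. The part of repeats in the differences between ranges was not tested.

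The 3 peaks farthest from any protein-coding TSS all lay between the protocadherin genes Pcdh20 and Pcdh9 on chromosome 14. The farthest, 2559 kb from the Pcdh9 TSS at chr14:91326670-91327171, held an AP-1 match and had 14.6, 15.5 and 14.5 CPM in MEFs and 1.39, 1.12 and 0.559 CPM in mESCs (log2 fold change -3.92 ± 0.25). The other two, at 2427 and 2407 kb, were higher in mESCs (3.97 ± 0.38 and 4.55 ± 0.26) and were 72.1% and 77.7% masked. On single chromosomes, the median log2 fold change of gene-desert peaks was -3.29 to -0.64 on the autosomes, while the 92 on the X chromosome had a median of 0.04, with 38 higher in mESCs and 43 higher in MEFs.

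The same comparison in the Illumina samples, counted in the same peaks, called 6335 gene-desert peaks (95.2%), 4042 higher in MEFs and 2293 higher in mESCs. The background over all peaks was 84.7%, with 43.4% higher in MEFs and 41.2% higher in mESCs. Of the 6283 gene-desert peaks called on both platforms, 6283 went the same way. Since both platforms read the same libraries, this repeats the sequencing and not the cells. The share of reads at gene-desert peaks was 4.38% ± 0.191 (SD, n = 3) in the MEF and 3.02% ± 0.00977 (SD, n = 3) in the mESC Illumina samples.

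Gene-desert peaks received somewhat more reads on the BGI platform. The median log2(CPM + 0.1) over gene-desert peaks was higher in the BGI than in the Illumina sample of the same library by 0.16, 0.16 and 0.18 in MEF 1, 2 and 4 and by 0.19, 0.20 and 0.14 in mESC 1, 3 and 5. The mean of 0.17, higher in 6 of 6 libraries, had p = 0.035 (two-sided exact permutation of the platforms within each cell type, which can go down to 0.005). Leaving out MEF 1, 2 or 4 or mESC 1 or 5 kept the difference at 0.167 to 0.176 and raised the exact p to 0.05 to 0.1, and without mESC 3 it was 0.165 with an exact p of 0.033. With the library as a replicate block the exact p was 0.03125, the smallest that 6 pairs allow. The same difference over all peaks was 0.05 to 0.11, and the excess of gene-desert peaks over it was 0.09 on average (exact p = 0.09 unpaired, 0.03125 paired). In the peak set built from the Illumina samples, with 6094 gene-desert peaks, the difference was 0.15 (exact p = 0.04). Gene-desert peaks had a median GC content of 45.8% against 51.0% over all peaks, and the part of GC content in the platform difference was not tested.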

How the data were processed

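Omni-ATAC-seq was performed on 3 MEF and 3 mESC libraries, each read on both platforms, and samples were grouped by cell type and platform from their titles. Per the study's methods, the authors aligned 100-bp reads to GRCm38.p6 (mm10) with Bowtie2, removed duplicates, reads of mapping quality below 10 and mitochondrial reads, and down-sampled MEF samples to 60 M and mESC samples to 45 M reads. The authors called peaks per sample with MACS2, and the deposited peak files give each summit's fold enrichment (a ratio) and -log10 p. Windows of 250 bp to each side of a summit with a depth-scaled score of at least 3 in at least 2 samples formed the lists. The deposited tables hold raw counts per peak. Columns without a platform name were taken as Illumina, after the peak names of those samples.

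Here, counts were tested with edgeR 4.0.16 (TMM, filterByExpr, robust quasi-likelihood, Benjamini-Hochberg over all 91354 peaks), with DESeq2 1.42.0 as an alternative. On counts simulated for the BGI comparison, with 200 of the 91354 peaks changed by 1 on the log2 scale, 62% of the changed peaks were recovered. A list was matched when a window overlapped by at least 50%. Named peaks were, by rule, the 8 lowest p per direction without overlap and the 4 most accessible not called with a small log2 fold change. Also named were the 3 farthest from a TSS and the lowest p of the 3 fullest deserts (here 6 by ties). The 3 lowest p per flanking list and all peaks beside Sox2 completed them. The members and lists were chosen with earlier results of these data known. Libraries read on both platforms pair the samples: deviations from the group mean correlated at 0.29 to 0.62 within a library.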

Additional observations from a re-analysis of the deposited data

How the results depend on the processing

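The number of gene-desert peaks called in each comparison stayed within 1.5 times of the reported one under DESeq2, RLE size factors, library sizes at the down-sampled depths, no filter, a minimum mean count of 50, an absolute log2 fold change of 1 or more, no requirement on other TSSs, TSSs of protein-coding transcripts only, and each library left out. For the BGI comparison alone, so did both platforms summed per library. The Illumina samples counted in the Illumina peak set gave 5819 of 6094 called, also within that range. Peak set and samples changed together there, so their parts cannot be told apart. The number moved only with the distance that defines a desert. More than 50 kb from a TSS, 10386 of 11092 peaks (93.6%) were called in the BGI samples (4085 higher in mESCs, 6301 in MEFs). In the Illumina samples 10397 (93.7%) were called (4111 and 6286). More than 200 kb away, 3250 of 3376 (96.3%, 1113 and 2137) and 3246 (96.1%, 1122 and 2124) were called. The shares called thus changed little from the 95.3% and 95.2% of the 100 kb rule, against 84.1% and 84.7% of all peaks. Fewer or more peaks meet these rules by construction. Library sizes at the down-sampled depths moved the median log2 fold change of all peaks from -0.08 to 0.06 and that of gene-desert peaks from -2.25 to -2.11. The platform difference at gene-desert peaks was 0.0893 after subtracting the median of all peaks of a library (exact p = 0.09), and 0.165 to 0.176 with each library left out (exact p = 0.033 to 0.1). With the library as a replicate block, the difference of 0.17 had an exact p of 0.03125 and stayed called, while the excess over all peaks went from an exact p of 0.09 to 0.03125, and in the Illumina peak set (0.0863) from 0.065 to 0.03125. The difference in the share of reads at gene-desert peaks, -1.59 points for mESC minus MEF, was -0.869 points beyond 200 kb and -3.69 points over reads in peaks more than 1 kb from any TSS, with an exact p of 0.1 throughout.

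Of 684 refits of 57 named peaks, 673 kept direction and side of the threshold and 11 changed sign, all at peaks not called. The peak beside Nog (-0.01) became 0.03 with DESeq2 (0.0336) and with RLE size factors (0.0336), 0.135 with down-sampled depths and 0.0225 with the minimum of 50, and ran from -0.0935 to 0.101 with each library left out. The Fam43a–Xxylt1 peak (0.10) ran from -0.0035 to 0.269 with each library left out. The peak called in neither direction beside Sox2 (-0.05) became 0.097 with down-sampled depths and ran from -0.0833 to 0.00533 with each library left out. Depth limits the low side of each contrast, where single peaks held few reads.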
